A study of Mus musculus with 12 samples.

Results

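The comparison described here asks whether ΔNLef1 changes gene expression in the same way inside and outside the hair follicle bulge. Lef1 is a transcription factor of the Wnt pathway: in the presence of a Wnt signal it binds β-catenin and activates its target genes, and without β-catenin it can recruit repressors to the same sites. ΔNLef1 lacks the amino terminus that binds β-catenin, and in K14ΔNLef1 mice it is made from a transgene under the keratin 14 promoter, which is active in basal keratinocytes. The bulge is the part of the follicle that holds slowly cycling stem cells marked by CD34, whereas integrin α6 (ITGA6) anchors all basal keratinocytes to the basement membrane. Female mice aged 9.5 weeks gave epidermis of the back skin, whose keratinocytes were sorted by flow cytometry, and their RNA was amplified and hybridised to Affymetrix mouse exon arrays. Both the CD34+ITGA6+ and the ITGA6+ population were collected from wild-type (WT) and from K14ΔNLef1 mice, which makes 4 groups. The methods describe the ITGA6+ population as CD34-negative, and the transgene reaches every keratinocyte with an active keratin 14 promoter, in both gates. Each group has 3 arrays, which the labels call biological replicates without naming the animals, so p-values measure the spread between these samples. All 12 of the 12 arrays entered the comparison.

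For each gene the effect of ΔNLef1 is the mean of the 3 K14ΔNLef1 arrays minus the mean of the 3 WT arrays on the log2 scale. The quantity reported is the difference of effects, which is the effect in CD34+ITGA6+ cells minus the effect in ITGA6+ cells. A positive difference means that the gene responded more upwards, or less downwards, in the bulge gate. Because the scale is logarithmic, equal ratios give a difference of 0, whatever the starting level. Of 11287 genes, 5712 lay above the median of an array in at least 3 arrays and were tested, and a gene was called when limma's moderated test gave it an adjusted p under 0.05 (Benjamini-Hochberg, across the whole tested table). The array medians ran from 7.35 to 7.63, and values under them are described below as low, since background itself was not measured. In sorted bulk samples, fewer cells of a type and less RNA per cell cannot be told apart.

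The transgene, its promoter and the markers of the gates were examined first. Lef1 measured 12.65, 12.49 and 12.60 in the K14ΔNLef1 CD34+ITGA6+ arrays and 12.71, 12.55 and 12.68 in the K14ΔNLef1 ITGA6+ arrays, against 5.99 to 7.15 in the 6 WT arrays. The transgenic levels overlapped between the gates, and the difference of effects was −0.37 ± 0.34 (SE, adjusted p = 0.885, 95% interval −1.09 to 0.36). All 13 Lef1 probe sets had a negative difference, from −1.73 to −0.08, so an equal rise in both gates is not shown. Some of them, with differences of −0.27, −0.27 and −0.08, had effects between −0.40 and 0.38 in both gates. The sign of those probe sets thus does not bear on the rise. Krt14, whose promoter drives the transgene, had a difference of 0.03 ± 0.24 (adjusted p = 0.994). Cd34 lay between 11.12 and 12 in the CD34+ITGA6+ arrays and between 5.17 and 5.59 in the ITGA6+ arrays, with a difference of effects of −0.36 ± 0.27 (adjusted p = 0.818), and Itga6 gave 0.41 ± 0.26 (adjusted p = 0.735). The labels also carry a description of each array that names the bulge gate basal and the other gate bulge. This is the reverse of the titles, which the Cd34 levels bear out and which are followed here. The 7 basal keratinocyte markers were all tested, none was called for the difference, and their summed intensity was 17199 to 24622 across the arrays. Markers of other skin cells were mostly low: the filter kept 1 of 7 melanocyte markers, 2 of 8 Langerhans and myeloid markers, 3 of 7 fibroblast markers and 1 of 5 muscle markers, and none of the 3 T cell, 5 endothelial or 3 Merkel cell markers. None of those kept was called.

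The effect of ΔNLef1 differed between the gates for 88 of the 5712 genes (1.54%), with 42 differences above 0 (0.735%) and 46 below 0 (0.805%). Every called difference was at least 1.04 in size, and the highest was 4.62. Over all genes tested the median difference was 0.02, and the 5th and 95th percentiles were −0.72 and 0.76. Without adjustment 546 genes had a p under 0.05, where 286 would be reached if no gene differed. The difference carries the error of 4 group means, so its median SE was 0.32, against 0.23 for the effect in 1 gate. A gene without a call is thus not shown to respond alike in both gates. The effect itself was called for 109 genes in CD34+ITGA6+ cells (1.91%) and for 303 in ITGA6+ cells (5.3%), 372 genes in either, and 83 of these were also called for the difference. For the other genes the data do not show whether the response differed or was shared.

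The genes were sorted into 5 classes by whether the effect was at least 1 in size in each gate. Among the 88 called genes, 47 had such an effect in ITGA6+ cells alone, 25 upwards and 22 downwards, and 21 had it in CD34+ITGA6+ cells alone, 10 upwards and 11 downwards. In 5 genes the effects were opposite, in 6 they ran the same way and differed in size, and in 9 both were under 1. Over all genes tested, 218 fell in the class for ITGA6+ cells alone, 105 in that for CD34+ITGA6+ cells alone, 46 in both gates in the same direction and 5 in opposite directions. The scatter of the effects in the 2 gates sets these classes against the bulk of the genes, which lie around the origin.

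**Figure D1:**
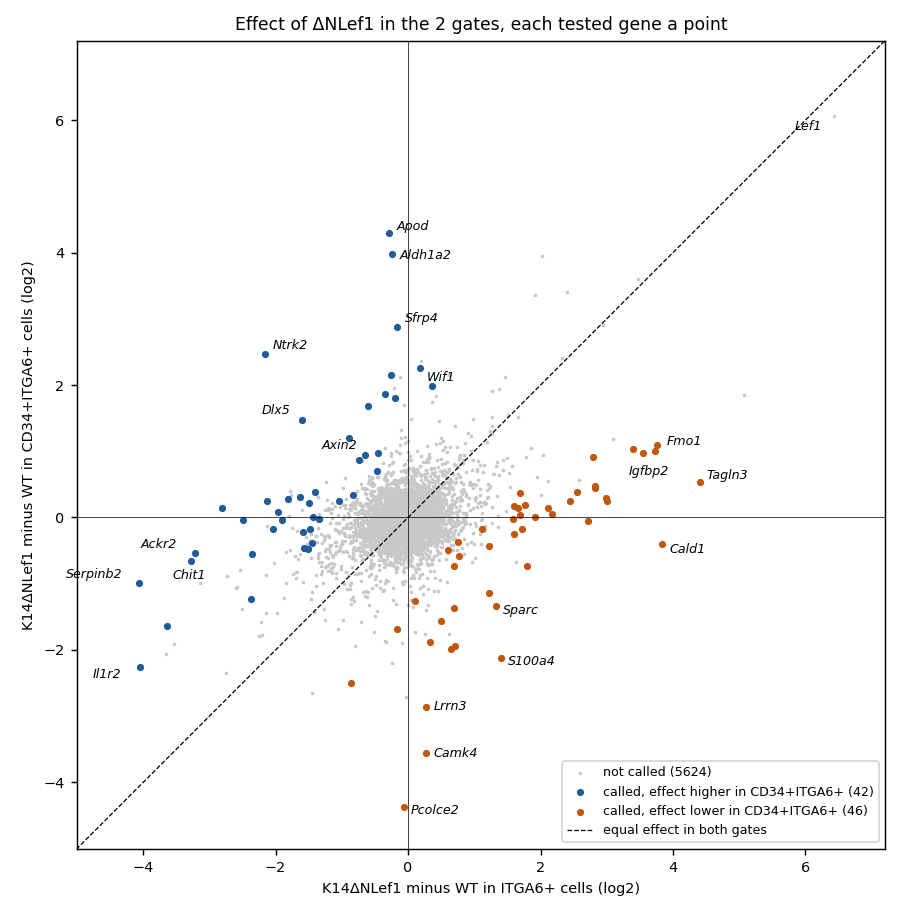
Effect of ΔNLef1 (K14ΔNLef1 minus WT, log2, 3 arrays against 3) in ITGA6+ cells on the horizontal axis and in CD34+ITGA6+ cells on the vertical axis for the 5712 tested genes. The 42 called genes with a higher effect in CD34+ITGA6+ cells lie above the dashed line of equal effects and the 46 with a lower effect lie below it, while Lef1 lies close to that line.

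Seen the other way, the same difference is the gap between the gates (CD34+ITGA6+ minus ITGA6+) in K14ΔNLef1 mice minus the gap in WT mice. In WT mice 57 of the 88 called genes had a gap of at least 1 between the gates, and in 41 of these the gap was under 1 in K14ΔNLef1 mice. Another 27 had a gap under 1 in WT mice and at least 1 in K14ΔNLef1 mice. Over all genes tested 630 had a WT gap of at least 1, 306 of them had a gap under 1 in K14ΔNLef1 mice, and 156 went the other way. The gap was smaller in K14ΔNLef1 than in WT mice in 60.2% of called genes and in 54.6% of all genes tested. Called genes were chosen by the change in this gap, which was at least 1.04 in each. Their crossing of a gap of 1 is thus largely built in and is not separate support. Ntrk2 and Vldlr had gaps of at least 1 that changed sign, from −2.31 to 2.31 and from 1.5 to −1.20.

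In 5 called genes ΔNLef1 had effects of at least 1 in opposite directions in the 2 gates. Ntrk2 encodes the receptor of brain-derived neurotrophic factor and had the highest difference of all. It measured 6.44, 6.37 and 5.74 in WT CD34+ITGA6+ cells and 8.90, 8.75 and 8.29 in K14ΔNLef1 CD34+ITGA6+ cells, whereas in ITGA6+ cells it measured 8.57, 8.24 and 8.67 in WT and 6.44, 6.49 and 6.08 in K14ΔNLef1 mice. The 2 genotypes did not overlap in either gate, and the WT levels of one gate were close to the K14ΔNLef1 levels of the other. Inside the bulge gate Ntrk2 rose by 2.46 ± 0.24, outside it the gene fell by 2.15, and the difference of 4.62 ± 0.33 had an adjusted p of 4.6e-06. All 16 of its probe sets had a positive difference, from 1.04 to 7.64.

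S100a4, a small calcium-binding protein known from motile cells, went the other way. Its levels were 12.58, 12.30 and 12.21 in WT and 10.43, 10.36 and 9.93 in K14ΔNLef1 CD34+ITGA6+ cells, and 7.51, 7.72 and 7.47 in WT and 9.13, 9.08 and 8.69 in K14ΔNLef1 ITGA6+ cells. Its gap between the gates thus narrowed from both sides, from 4.80 to 1.27, with a difference of effects of −3.52 ± 0.28 (adjusted p = 1.1e-05). Sparc, a secreted glycoprotein that binds collagen, had the same pattern at high levels: 11.61, 11.01 and 11.28 in WT and 10.49, 9.91 and 9.48 in K14ΔNLef1 CD34+ITGA6+ cells, and 8.87, 9.61 and 9.18 in WT and 10.44, 10.73 and 10.46 in K14ΔNLef1 ITGA6+ cells. It fell by 1.34 in the bulge gate and rose by 1.32 ± 0.27 outside it, a difference of −2.66 ± 0.38 (adjusted p = 0.0015). The fall of Sparc in CD34+ITGA6+ cells was called in 10 of 12 fits that each left out 1 array, with the highest adjusted p, 0.0824, without WT CD34+ITGA6+ replicate 1.

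Arhgap24 measured 8.14, 7.65 and 8.40 in WT and 6.48, 7.18 and 7.12 in K14ΔNLef1 CD34+ITGA6+ cells, and 6.32, 6.65 and 6.53 in WT and 7.81, 8.03 and 7.30 in K14ΔNLef1 ITGA6+ cells. Its effects of −1.14 and 1.22 gave a difference of −2.35 ± 0.36 (adjusted p = 0.0036). The homeobox gene Dlx5, known from hair and bone development, was less even. It measured 7.10, 6.78 and 6.25 in WT and 9.18, 7.02 and 8.35 in K14ΔNLef1 CD34+ITGA6+ cells, which overlapped, and 7.59, 7.36 and 6.99 in WT and 5.82, 6.01 and 5.29 in K14ΔNLef1 ITGA6+ cells, which did not. The effect of 1.47 ± 0.42 in CD34+ITGA6+ cells was not called (adjusted p = 0.117), the fall by 1.61 in ITGA6+ cells was (adjusted p = 0.0407), and the difference was 3.08 ± 0.59 (adjusted p = 0.0148). Dlx5 had 3 group means below the lowest array median, both ITGA6+ means (7.31 and 5.71) among them. It did not pass the filter with the mean over probe sets or with the stricter filter. The differences of all 5 genes were called in each of the 12 fits with 1 array left out, but the effects of Arhgap24 and Dlx5 in single gates were not. In ITGA6+ cells the call for Dlx5 held in 5 of the 12 (highest adjusted p = 0.155, without K14ΔNLef1 ITGA6+ replicate 3). For Arhgap24 it held in 7 of 12 in CD34+ITGA6+ cells (0.146, without K14ΔNLef1 CD34+ITGA6+ replicate 1) and in 9 of 12 in ITGA6+ cells (0.0574, without K14ΔNLef1 ITGA6+ replicate 2).

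**Figure D2:**
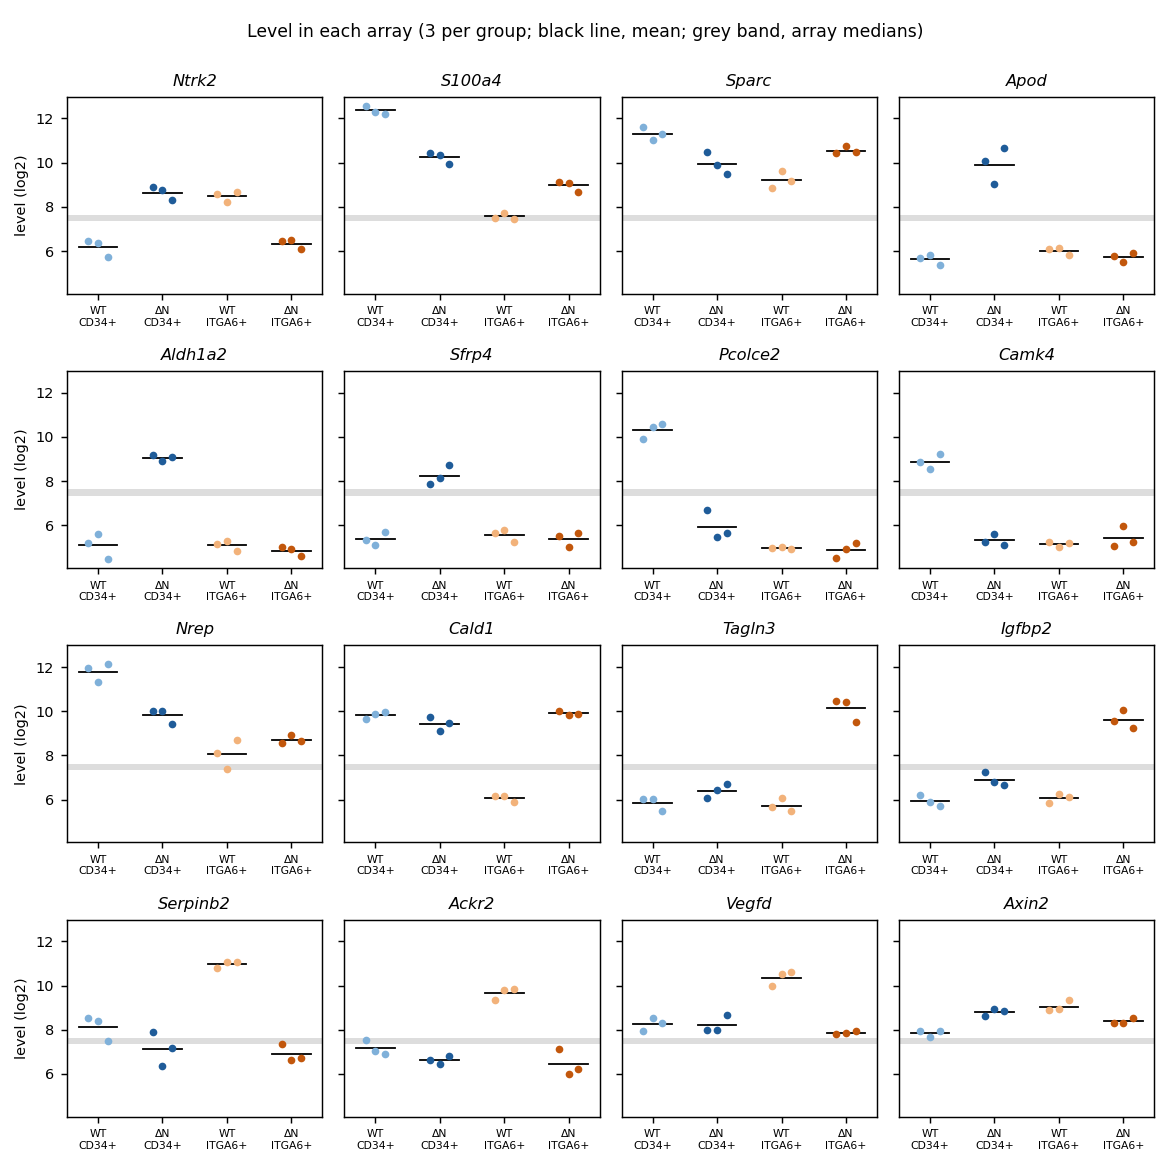
Level (log2 intensity) of 16 genes in each of the 12 arrays, with 3 points per group, a black line at the group mean and a grey band over the range of the array medians (7.35 to 7.63). The CD34+ labels stand for CD34+ITGA6+ cells and ΔN for K14ΔNLef1, and the panels show opposite responses (Ntrk2, S100a4, Sparc), responses in the bulge gate (Apod to Nrep), responses outside it (Cald1 to Vegfd) and the Wnt target Axin2.

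A set of genes rose by at least 1 in the bulge gate, with an effect under 1 in size outside it. Apod, a lipocalin that carries small lipids, measured 5.68, 5.80 and 5.39 in WT and 10.06, 9.03 and 10.65 in K14ΔNLef1 CD34+ITGA6+ cells, against 5.51 to 6.14 in the 6 ITGA6+ arrays. It was low in 9 arrays and well above the array medians in 3, and its difference was 4.57 ± 0.44 (adjusted p = 5.5e-05). Aldh1a2, the enzyme that makes retinoic acid from retinaldehyde, measured 5.19, 5.60 and 4.48 in WT and 9.19, 8.92 and 9.09 in K14ΔNLef1 CD34+ITGA6+ cells, against 4.62 to 5.31 in the ITGA6+ arrays (difference 4.22 ± 0.36, adjusted p = 1.9e-05). Crabp1, which binds retinoic acid in the cytoplasm, was already present in the WT bulge gate, at 8.41, 8.08 and 8.77, and measured 10.81, 9.57 and 9.95 in K14ΔNLef1 mice. In ITGA6+ cells it was low, at 6.84, 7.19 and 7.05 in WT and 6.09, 6.60 and 6.58 in K14ΔNLef1 mice, and the difference was 2.29 ± 0.41 (adjusted p = 0.0102). This call was lost when a gene's value was the mean over its probe sets in place of their median (adjusted p = 0.052).

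Both called secreted inhibitors of Wnt signalling belonged to this set. Sfrp4, a secreted protein that binds Wnt ligands, measured 5.34, 5.10 and 5.68 in WT and 7.86, 8.14 and 8.75 in K14ΔNLef1 CD34+ITGA6+ cells, and stayed between 5.01 and 5.77 in ITGA6+ cells. Wif1, another secreted Wnt-binding inhibitor, measured 7.03, 7.35 and 7.68 in WT and 9.99, 9.29 and 9.54 in K14ΔNLef1 CD34+ITGA6+ cells, and 5.81 to 6.57 in ITGA6+ cells. The differences were 3.04 ± 0.37 for Sfrp4 (adjusted p = 4.8e-04) and 2.07 ± 0.34 for Wif1 (adjusted p = 0.006), and the genotypes did not overlap in the bulge gate for either. Htra1, a secreted serine protease, rose from 8.20, 7.93 and 8.93 to 10.61, 10.06 and 10.01 in CD34+ITGA6+ cells and lay between 10.18 and 11.01 in all ITGA6+ arrays, so the bulge gate approached the level outside it. Chst15, which adds sulphate to chondroitin chains, showed the same approach, from 6.60, 6.01 and 6.59 to 9.03, 8.47 and 8.15, with 7.93 to 8.78 in ITGA6+ cells. Their differences were 2.22 ± 0.37 (adjusted p = 0.0066) and 2.40 ± 0.37 (adjusted p = 0.0033). Of the 10 genes with an upward effect of at least 1 in the bulge gate alone, 7 had both ITGA6+ group means below the lowest array median, where the relation of the values to background is not known.

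Another set fell by at least 1 in the bulge gate alone. Slc16a7, also in this set, fell in both gates. Its group means went from 8.46 in WT to 5.96 in K14ΔNLef1 CD34+ITGA6+ cells, and from 6.98 to 6.12 in ITGA6+ cells. The fall outside the bulge gate was under 1 in size but was itself called. Pcolce2, which enhances the processing of procollagen, measured 9.91, 10.44 and 10.58 in WT and 6.68, 5.48 and 5.64 in K14ΔNLef1 CD34+ITGA6+ cells, and 4.52 to 5.20 in the ITGA6+ arrays. It fell by 4.38 in the bulge gate, and the difference of −4.31 ± 0.41 (adjusted p = 5.5e-05) was the lowest of all. Camk4, a kinase switched on by calcium and calmodulin, fell from 8.85, 8.54 and 9.24 to 5.23, 5.63 and 5.09, the level of the ITGA6+ arrays (5.03 to 5.98), with a difference of −3.83 ± 0.36 (adjusted p = 5.5e-05). Both genes were above the array medians in the WT bulge arrays only. Tnc, which encodes the matrix glycoprotein tenascin C, fell from 7.94, 7.40 and 8.55 to 6.56, 6.28 and 6.35, and lay at 6.26 to 6.98 in ITGA6+ cells (difference −2.06 ± 0.34, adjusted p = 0.006).

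Of the other genes of this set, Nrep stayed at or above the array medians in nearly all arrays. The group means of Cyp2b10, from 8.42 to 9.83, also lay above those medians. So did those of Elovl7, except 7.08 in K14ΔNLef1 CD34+ITGA6+ cells. Nrep, a neuronal regeneration-related protein, fell from 11.94, 11.31 and 12.14 to 9.99, 10.03 and 9.42 inside the bulge gate and measured 8.12, 7.37 and 8.71 in WT and 8.57, 8.94 and 8.64 in K14ΔNLef1 ITGA6+ cells, which overlapped. Its difference was −2.64 ± 0.44 (adjusted p = 0.0065). The potassium channel gene Kcnk2 fell from 8.91, 8.43 and 8.83 to 7.06, 7.23 and 6.07, with 6.78, 6.69 and 6.13 in WT and 7.31, 7.70 and 6.72 in K14ΔNLef1 ITGA6+ cells (difference −2.65 ± 0.45, adjusted p = 0.0068). Lrrn3, a leucine-rich repeat membrane protein, fell from 10.33, 9.72 and 10.66 to 7.19, 8.27 and 6.68, but was scattered in WT ITGA6+ cells, at 7.81, 5.75 and 7.12. Its difference of −3.13 ± 0.67 (adjusted p = 0.0302) was called in 5 of 12 fits with 1 array left out, and the highest adjusted p was 0.0876, without K14ΔNLef1 ITGA6+ replicate 1. The effect in CD34+ITGA6+ cells was called for all 11 genes of this class.

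The largest class rose by at least 1 in ITGA6+ cells alone. Cald1 encodes caldesmon, which binds actin and calmodulin, and had the lowest adjusted p of all differences (−4.24 ± 0.27, adjusted p = 1.9e-06). It measured 9.66, 9.87 and 9.98 in WT and 9.75, 9.11 and 9.45 in K14ΔNLef1 CD34+ITGA6+ cells, 6.16, 6.16 and 5.90 in WT ITGA6+ cells and 10.03, 9.85 and 9.86 in K14ΔNLef1 ITGA6+ cells. The level outside the bulge gate thus went from low to that of the WT bulge gate, while the genotypes overlapped inside it. Tagln3, a member of the transgelin family of actin-binding proteins known mainly from neurons, was low in 9 arrays (5.48 to 6.73) and measured 10.48, 10.41 and 9.52 in K14ΔNLef1 ITGA6+ cells (difference −3.87 ± 0.39, adjusted p = 8.9e-05). Unlike Cald1 it was not high in the bulge gate of either genotype.

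Igfbp2 encodes a binding protein of insulin-like growth factors, and its level rose by 3.55 ± 0.24 in ITGA6+ cells, from 5.83, 6.25 and 6.11 to 9.54, 10.05 and 9.24. In CD34+ITGA6+ cells it measured 6.20, 5.88 and 5.72 in WT and 7.25, 6.78 and 6.68 in K14ΔNLef1 mice, an effect of 0.97 that was not called (adjusted p = 0.0586) although the arrays did not overlap. The difference was −2.58 ± 0.34 (adjusted p = 9.6e-04). Vldlr, a receptor for lipoproteins and for reelin, rose from 5.69, 5.35 and 5.88 to 8.86, 8.47 and 8.56 in ITGA6+ cells and lay between 6.71 and 7.60 in the bulge arrays (difference −2.70 ± 0.31, adjusted p = 3.4e-04). Nectin3, an adhesion molecule of the immunoglobulin family, rose from 6.11, 6.13 and 6.43 to 9.30, 8.18 and 8.53 and measured 6.09 to 6.75 in the bulge arrays (difference −2.19 ± 0.36, adjusted p = 0.0055). Nme5, a protein of the nucleoside diphosphate kinase family, and Serpine2, an inhibitor of serine proteases, had the same pattern, with differences of −2.77 ± 0.49 (adjusted p = 0.0105) and −2.76 ± 0.56 (adjusted p = 0.0209). The call for Serpine2 held in 8 of 12 fits with 1 array left out and was lost without K14ΔNLef1 CD34+ITGA6+ replicate 1 or 2, WT ITGA6+ replicate 3 or K14ΔNLef1 ITGA6+ replicate 3 (adjusted p from 0.054 to 0.06), with a variance trend (0.111) and with array weights (0.0597). Of the 25 genes that rose by at least 1 in ITGA6+ cells alone, 23 had a WT ITGA6+ mean below the lowest array median, and 12 had both bulge-gate means there.

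Genes of phospholipid, drug and cysteine metabolism, 3 in number, had effects of at least 1 upwards in both gates that were larger outside the bulge. Fmo1, a flavin-dependent monooxygenase that oxidises drugs and other foreign compounds, rose from 6.51, 6.56 and 6.85 to 10.43, 10.56 and 10.22 in ITGA6+ cells and from 6.24, 6.74 and 6.74 to 7.63, 7.32 and 8.04 in CD34+ITGA6+ cells. The genotypes did not overlap in either gate, and the difference was −2.68 ± 0.31 (adjusted p = 3.4e-04). Its effect in CD34+ITGA6+ cells was called in 9 of 12 fits with 1 array left out (highest adjusted p = 0.0911, without K14ΔNLef1 CD34+ITGA6+ replicate 3). Pla2g4c, a phospholipase A2 of the cytosolic group, had effects of 3.73 ± 0.26 outside and 1.01 ± 0.26 inside the bulge gate, the latter not called (adjusted p = 0.0758), and Cdo1, which oxidises cysteine, had 3.39 ± 0.32 and 1.03 ± 0.32 (the latter with an adjusted p of 0.157). Their differences were −2.73 ± 0.37 (adjusted p = 0.0012) and −2.37 ± 0.45 (adjusted p = 0.0129). With a variance trend the call for Cdo1 was lost (adjusted p = 0.088).

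The remaining large class fell by at least 1 in ITGA6+ cells alone. Serpinb2, an inhibitor of plasminogen activators, measured 10.79, 11.07 and 11.05 in WT and 7.36, 6.61 and 6.73 in K14ΔNLef1 ITGA6+ cells, and 8.53, 8.38 and 7.47 in WT and 7.91, 6.34 and 7.17 in K14ΔNLef1 CD34+ITGA6+ cells. It fell by 4.07 outside the bulge gate, while inside it the genotypes overlapped with an effect of −0.99 ± 0.36 (adjusted p = 0.286), and the difference was 3.08 ± 0.51 (adjusted p = 0.006). Chit1, a chitinase better known from macrophages, fell from 10.02, 10.23 and 10.22 to 7.06, 6.75 and 6.82 in ITGA6+ cells and lay between 6.50 and 7.71 in the bulge arrays (difference 2.62 ± 0.31, adjusted p = 4.7e-04). In both genes the K14ΔNLef1 level outside the bulge gate was as low as that inside it.

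Lef and Tcf factors bind DNA sites of the form CTTTGAA and its variants ending in AT, in TA or in TT. Promoter windows of RefSeq (mouse assembly GRCm38.p6, from 250 bases before to 50 after a gene's start) were searched for these 4 motifs of 7 letters on both strands. The windows of Serpinb2 and Chit1 are shown because they are the genes with the highest differences that hold a match, printed 5′ to 3′ on the plus strand with the match in capitals (its first base lies 87 and 128 bases before the start).
Serpinb2, chr1:107511173-107511472: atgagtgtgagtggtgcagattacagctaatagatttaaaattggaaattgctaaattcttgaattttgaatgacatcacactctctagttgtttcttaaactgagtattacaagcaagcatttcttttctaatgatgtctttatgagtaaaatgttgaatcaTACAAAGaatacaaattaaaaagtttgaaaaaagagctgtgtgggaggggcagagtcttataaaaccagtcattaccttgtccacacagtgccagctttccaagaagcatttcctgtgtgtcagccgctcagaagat
Chit1, chr1:134110992-134111291: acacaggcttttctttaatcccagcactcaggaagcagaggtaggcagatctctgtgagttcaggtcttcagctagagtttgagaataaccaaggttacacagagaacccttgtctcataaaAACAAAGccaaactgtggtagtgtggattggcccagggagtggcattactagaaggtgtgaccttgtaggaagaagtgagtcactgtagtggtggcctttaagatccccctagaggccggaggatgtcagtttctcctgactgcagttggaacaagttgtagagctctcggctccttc
A window was found for 65 of the 88 called genes, and 11 of their 91 windows held a match (12.1%), against 704 of 6052 windows of all tested genes (11.6%) and 16.9% of all 32851 windows. The share among called genes was thus near that of the tested genes, and a match is a description of letters and not of a bound site. A stretch of 7 letters can match only 1 of the 4 motifs on a strand.

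Another 5 genes of this class are given by array. Ackr2, a receptor that removes inflammatory chemokines, fell from 9.36, 9.78 and 9.86 to 7.12, 6.0 and 6.21 in ITGA6+ cells and lay between 6.47 and 7.53 in the bulge arrays (difference 2.69 ± 0.39, adjusted p = 0.0019). Vegfd, a growth factor for lymphatic vessels, fell from 9.97, 10.51 and 10.61 to 7.82, 7.85 and 7.95, with 7.96 to 8.66 in the bulge arrays (difference 2.45 ± 0.33, adjusted p = 0.0012). The hormone subunit gene Gpha2 fell from 9.45, 9.34 and 9.78 to 7.37, 7.59 and 7.23, with 7.65 to 8.61 in the bulge arrays (difference 2.38 ± 0.33, adjusted p = 0.0014). For all 3 the K14ΔNLef1 ITGA6+ cells reached or passed below the bulge level, and no WT ITGA6+ array overlapped any other group. Fam81a had a difference of 2.96 ± 0.57 (adjusted p = 0.0144), with 8.72, 9.60 and 9.75 in WT and 6.27, 5.98 and 7.40 in K14ΔNLef1 ITGA6+ cells. Egfl6, a matrix protein that bulge cells deposit around the follicle, differed from the others in that it was high in the bulge gate of both genotypes (10.56 to 11.22) and fell from 7.98, 9.01 and 9.10 to 7.48, 6.85 and 6.34 outside it. Its difference of 2.09 ± 0.44 (adjusted p = 0.0259) was called in 4 of 12 fits with 1 array left out, with the highest adjusted p, 0.0792, without WT ITGA6+ replicate 2.

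**Figure D3:**
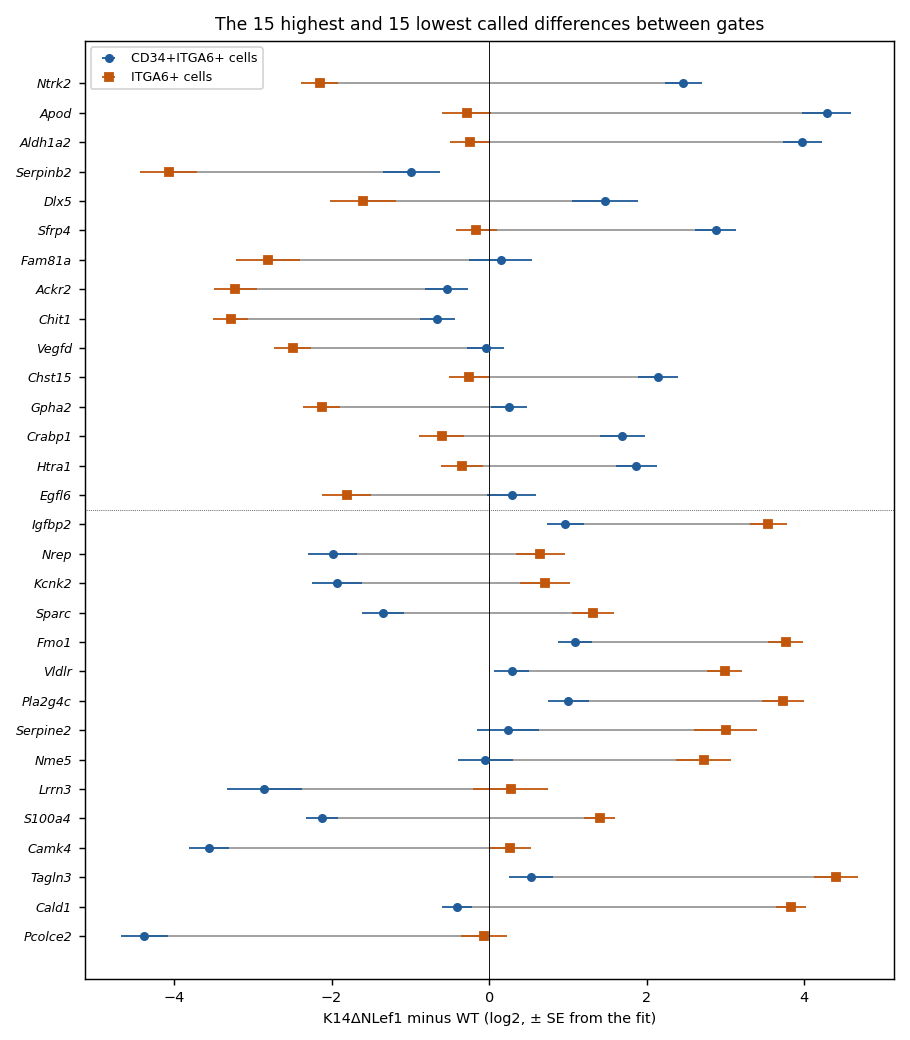
The 15 highest and the 15 lowest called differences, with the effect of ΔNLef1 (log2, ± SE from limma, 3 arrays against 3) in CD34+ITGA6+ cells as circles and in ITGA6+ cells as squares. From Ntrk2 at 4.62 to Egfl6 at 2.09 the circles lie to the right of the squares, and from Igfbp2 at −2.58 to Pcolce2 at −4.31 they lie to the left.

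Genes were next grouped by function, and each group is given by its called members and its median difference, beside the median of 0.02 over all genes tested and the background of 1.54% called. Of 10 tested Wnt target genes 1 was called, and 9 of the 10 differences were positive (median 0.33). The 1 negative difference was that of Lef1 (−0.37), whose signal includes the transgene. The called gene was Axin2, a feedback inhibitor that is widely used as a readout of Wnt signalling. It measured 7.94, 7.69 and 7.93 in WT and 8.61, 8.95 and 8.84 in K14ΔNLef1 CD34+ITGA6+ cells, and 8.88, 8.92 and 9.33 in WT and 8.32, 8.30 and 8.55 in K14ΔNLef1 ITGA6+ cells. Axin2 rose by 0.95 ± 0.18 in the bulge gate, whereas outside it the effect was −0.65 ± 0.18 without a call (adjusted p = 0.0572) although the arrays did not overlap, and the difference was 1.60 ± 0.26 (adjusted p = 0.0055). The rise was called in 9 of 12 fits with 1 array left out (highest adjusted p = 0.0631, without K14ΔNLef1 CD34+ITGA6+ replicate 3) and the difference in all 12. Tcf7, a relative of Lef1 and itself a target, had a difference of 1.01 ± 0.29 that was not called (adjusted p = 0.133, 95% interval 0.39 to 1.64).

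Of 5 tested secreted Wnt inhibitors, 2 were called (Sfrp4 and Wif1, above) and 4 differences were positive (median 1.29). The median effect of these inhibitors was −0.21 inside the bulge gate and −0.16 outside it. The rise of Sfrp4 and Wif1 in the bulge gate was thus not shared by the list as a whole. Among 16 Wnt ligands and receptors Wnt16 was called, 8 of the 16 differences were positive and the median was −0.00098. The highest difference of that list, 1.76, was not called. Wnt16, a ligand known from skin, fell from 7.80, 7.86 and 8.01 to 6.30, 6.37 and 6.54 in ITGA6+ cells and lay between 6.26 and 6.77 in the bulge arrays (difference 1.31 ± 0.24, adjusted p = 0.0116), a call that was lost with a variance trend (adjusted p = 0.0579). None of 12 Lef/Tcf factors and partners was called (median −0.01). For Ctnnb1, which encodes β-catenin, the difference was −0.47 ± 0.26 (adjusted p = 0.625). In the retinoid group 2 of 6 were called, Aldh1a2 and Crabp1 above, and the median was 0.46.

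Interleukin and chemokine receptors held 5 called genes of 18, all with a higher effect in the bulge gate, and 15 of the 18 differences were positive (median 0.67). Inside the bulge gate the median effect of the list was 0.04, and outside it −0.60. Besides Ackr2, the called members were Il1r2, the decoy receptor of interleukin 1, Il4ra, the shared chain of the interleukin 4 and 13 receptors, Lifr, the receptor of leukaemia inhibitory factor, and Il12rb2, a chain of the interleukin 12 receptor that was named after its value was seen. Il1r2 fell in both gates, from 7.55, 7.33 and 7.55 to 5.74, 4.99 and 4.92 in CD34+ITGA6+ cells and from 10.33, 10.85 and 10.88 to 7.14, 6.44 and 6.32 in ITGA6+ cells, so that it fell by 2.26 and fell by 4.06. In the bulge gate the K14ΔNLef1 values are low, so the smaller fall there starts from a level near the array medians. The differences were 1.79 ± 0.38 for Il1r2 (adjusted p = 0.0259), 1.17 ± 0.24 for Il4ra (0.0259), 1.43 ± 0.32 for Lifr (0.0362) and 2.0 ± 0.46 for Il12rb2 (0.049). These 4 calls are less firm than that of Ackr2: of 12 fits with 1 array left out they held in 5, 4, 2 and 1, with highest adjusted p of 0.0812 and 0.0862 (both without K14ΔNLef1 ITGA6+ replicate 3), 0.11 (the same array) and 0.122 (without WT ITGA6+ replicate 2). Of 12 tested cytokines, chemokines and alarmins 2 were called, S100a4 lower and Il34 higher, and the median was 0.09. Il34, the cytokine that maintains Langerhans cells, fell from 9.11, 8.97 and 9.14 to 7.62, 7.58 and 7.10 in ITGA6+ cells and lay between 7.82 and 8.97 in the bulge arrays (difference 1.95 ± 0.36, adjusted p = 0.0122). The summed intensity of the 8 Langerhans and myeloid markers was 554 to 575 in WT and 571 to 1219 in K14ΔNLef1 ITGA6+ cells, and 517 to 1058 and 911 to 1624 in CD34+ITGA6+ cells, and the part of such cells in these differences was not tested.

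Matrix genes split by member. Of 26 tested matrix proteins, 3 were called lower (Sparc, Tnc and Fbln1) and 2 higher (Egfl6 and Tnxb), with a median of −0.20. Fbln1, the matrix glycoprotein fibulin 1, rose from 5.90, 6.33 and 5.96 to 7.22, 7.57 and 8.23 in ITGA6+ cells and lay between 7.84 and 8.67 in the bulge arrays (difference −1.85 ± 0.38, adjusted p = 0.0209). Its call held in 7 of 12 fits with 1 array left out (highest adjusted p = 0.0616, without WT ITGA6+ replicate 1). Tnxb, which encodes tenascin X and was also named after its value was seen, had 1.04 ± 0.24 (adjusted p = 0.049), and its call held in 1 of the 12 (highest 0.133, without K14ΔNLef1 ITGA6+ replicate 3). Of 10 matrix-processing enzymes and their inhibitors, 9 differences were negative (median −1.04) and 2 were called, Pcolce2 and Serpine2, one through a fall in the bulge gate and the other through a rise outside it. In the actin group the 2 called genes of 12 were Cald1 and Tagln3, and without a call the other 10 lay between −0.47 and 0.81. The summed intensity of the 7 fibroblast markers was 725 to 809 in WT and 723 to 863 in K14ΔNLef1 ITGA6+ cells, and 840 to 983 and 935 to 1089 in CD34+ITGA6+ cells. For the 5 muscle markers it was 525 to 618 and 639 to 833, and 579 to 715 and 710 to 761, and their part in these differences was not tested.

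Metabolic and growth factor genes gave calls in both directions. Of 20 tested detoxification enzymes 4 were called, all with a higher effect outside the bulge gate, and the median was −0.25. An uncalled member had a difference of −2.68, about that of Fmo1. Besides Fmo1 and Cdo1 these were the glutathione transferases Gsta3 (−1.97 ± 0.40, adjusted p = 0.022) and Gstm2 (−1.89 ± 0.41, adjusted p = 0.0312). Gsta3 measured 6.46, 6.52 and 6.57 in WT and 8.27, 9.13 and 8.49 in K14ΔNLef1 ITGA6+ cells and 6.10 to 7.21 in the bulge arrays, and Gstm2 had 6.69, 7.32 and 7.26 against 8.79, 8.47 and 9.18, with 6.94 to 8.11. Their calls held in 5 and 3 of 12 fits with 1 array left out, with highest adjusted p of 0.059 (without K14ΔNLef1 CD34+ITGA6+ replicate 1) and 0.094 (without K14ΔNLef1 ITGA6+ replicate 3). In the insulin-like growth factor group of 8, Igfbp2 was called lower and Htra1, which cleaves binding proteins of these factors, higher, and the median was −0.18. Pla2g4c, with a negative difference, was the called gene of 9 in prostaglandin synthesis and transport, where 6 differences were positive (median 0.41). Nectin3 was the called gene of 20 junction genes (median 0.03) and Serpinb2 that of 6 clade B serpins (median 0.60). Of these serpins 1 had a negative difference, −3.23, which was larger in size than that of Serpinb2 but was not called. Ntrk2 was the called gene of 18 receptor tyrosine kinases (median −0.03) and of 15 neurotrophin and axon guidance genes (median 0.05).

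Of 8 tested hair lineage genes 2 were called, Dlx5 (above) and Gata3, and the median was −0.22. Gata3, a regulator of the inner root sheath and of the epidermal barrier, fell from 12.02, 11.90 and 11.78 to 10.35, 10.23 and 10.42 in ITGA6+ cells, while the bulge arrays had 10.60, 10.39 and 10.36 in WT and 9.96, 10.16 and 9.86 in K14ΔNLef1 mice (difference 1.11 ± 0.23, adjusted p = 0.0276). Id4, an inhibitor of basic helix-loop-helix factors and the called gene of 25 in the BMP and TGF-β pathways (median −0.01), fell from 8.61, 8.47 and 8.50 to 6.96, 7.13 and 7.12 outside the bulge gate and measured 9.24 to 9.88 inside it (difference 1.07 ± 0.24, adjusted p = 0.0422). The differences of that list ran from −2.37 to 1.32, and the genes at both ends, larger in size than Id4, were not called. Klf5, a zinc finger factor of proliferating epithelia, had effects of 0.86 and −0.74, neither called, and a difference of 1.60 ± 0.34 (adjusted p = 0.0288): it measured 9.01, 8.36 and 8.70 in WT and 9.83, 9.33 and 9.50 in K14ΔNLef1 CD34+ITGA6+ cells, and 10.65, 10.61 and 11.41 in WT and 10.25, 10.08 and 10.14 in K14ΔNLef1 ITGA6+ cells. The calls of Gata3, Id4 and Klf5 held in 3, 1 and 4 of 12 fits with 1 array left out, and the highest adjusted p was 0.0767 (without K14ΔNLef1 ITGA6+ replicate 2), 0.113 (without K14ΔNLef1 ITGA6+ replicate 1) and 0.0749 (without K14ΔNLef1 ITGA6+ replicate 3). Of 24 bulge stem cell genes 2 were called (Egfl6 and Wif1), and 17 of the 24 differences were negative (median −0.24). Of 12 tested genes that the study had singled out from these samples, 4 were called (Egfl6, Klf5 and Wnt16 higher, Tnc lower), and since the list was chosen on these data its count is not independent evidence.

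**Figure D4:**
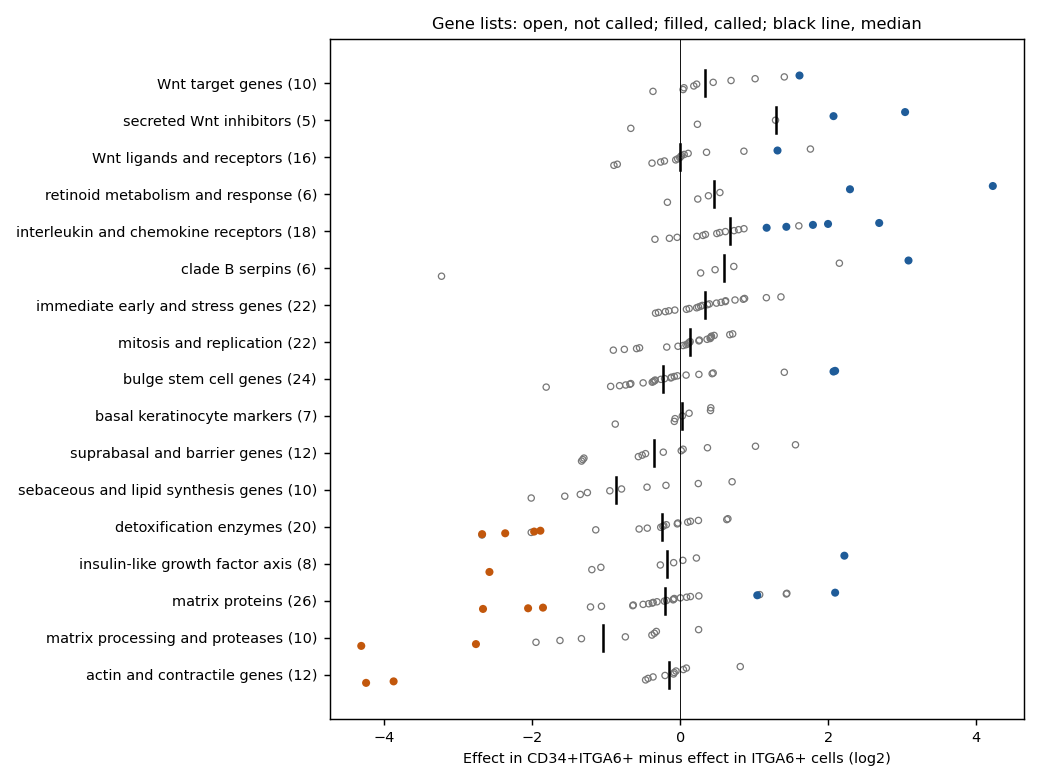
Difference of effects (CD34+ITGA6+ minus ITGA6+, log2) of each tested member of 17 gene lists, with the number tested in brackets, filled points for called and open points for uncalled genes and a black line at the list's median. The 5 filled points of the interleukin and chemokine receptors lie right of 0 and the 4 of the detoxification enzymes lie left of it, while mitosis genes, immediate early genes and basal markers have no filled point.

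Several groups gave no call. Of 10 sebaceous and lipid synthesis genes 8 had negative differences and the median was −0.87. Acaca, which catalyses the first step of fatty acid synthesis, had −1.35 ± 0.32 (adjusted p = 0.051, 95% interval −2.03 to −0.67) and the microsomal glutathione transferase Mgst1 −2.01 ± 0.50 (adjusted p = 0.0651, −3.08 to −0.95), so both lay just outside the threshold. Mgst1 measured 7.11, 5.71 and 7.50 in WT and 8.70, 8.95 and 9.08 in K14ΔNLef1 ITGA6+ cells and 7.96 to 8.54 in the bulge arrays, and without WT ITGA6+ replicate 2 or 3 its difference was called (−1.48, adjusted p = 0.0466, and −2.38, adjusted p = 0.024). Acaca was called without WT CD34+ITGA6+ replicate 2 (−1.51, adjusted p = 0.0346). Both were also called with centred arrays, quantile normalization or array weights (adjusted p from 0.0314 to 0.0357 without weights and 0.0209 with them for Acaca, and from 0.045 to 0.0492 for Mgst1), and Mgst1 with the mean over probe sets (0.0235). Among 12 suprabasal and barrier genes (median −0.35), the calmodulin-like gene Calml3 had −1.30 ± 0.34 (adjusted p = 0.0823) and the transglutaminase Tgm3 −1.33 ± 0.38 (adjusted p = 0.122). Calml3 was called with centred arrays, the mean over probe sets and array weights (adjusted p of 0.0454, 0.0452 and 0.0364). Without K14ΔNLef1 ITGA6+ replicate 3 Tgm3 was called (−1.61, adjusted p = 0.0424), as was Tcf7 without WT ITGA6+ replicate 1 (1.22, adjusted p = 0.0475).

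Genes of proliferation gave no call for the difference. Over 22 mitosis and replication genes the median effect was 0.51 in CD34+ITGA6+ and 0.57 in ITGA6+ cells and the median difference 0.13. The lowest adjusted p among them was that of the mitotic kinase Aurka (−0.90 ± 0.35, adjusted p = 0.373), and the spindle checkpoint kinase Bub1b had −0.76 ± 0.41 (adjusted p = 0.63). Of 22 immediate early and stress genes, which respond to cell handling as well as to signals, 17 differences were positive (median 0.33) and none was called. Egr1 had 0.87 ± 0.34 (adjusted p = 0.379) and Dusp1 0.85 ± 0.35 (adjusted p = 0.425).

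The groups of Notch, hedgehog, EGF and FGF, integrin, isthmus and sebaceous duct, cholesterol and DNA mismatch repair genes had medians between −0.19 and 0.25 and no call either. In these groups the differences of the genes with the lowest adjusted p were −0.58 ± 0.32 for the Notch ligand Jag1, −0.83 ± 0.30 for the hedgehog co-receptor Cdon, −0.94 ± 0.43 for the growth factor Fgf18, −0.88 ± 0.28 for the hemidesmosome linker Dst, −1.32 ± 0.45 for the keratin gene Krt6a, 0.75 ± 0.29 for the sterol demethylase Cyp51 and 0.61 ± 0.38 for the replication protein gene Rpa2. Next to them were Jag2 (0.20 ± 0.23), the hedgehog receptor Ptch1 (−0.61 ± 0.44), Fgfbp1, which releases growth factors from the matrix (0.58 ± 0.39), the proton pump subunit Atp6v1c2 (−0.72 ± 0.33), Dhcr7 of cholesterol synthesis (−0.61 ± 0.30) and Rpa1 (0.50 ± 0.33). Krt6a was called when probe sets were averaged (−1.59, adjusted p = 0.0222).

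The exon arrays allow each difference to be read by probe set. All 88 called genes had the same sign as the gene's difference in at least 80% of their probe sets, which held for 34.3% of all genes tested, and in 60 genes every probe set had it. Each gene's value is the median of the same probe sets, and every called difference was large. The agreement is thus largely built in and is not separate support. One called gene rested on 1 probe set. Probe sets of a gene differed in size, as in Cald1, whose 11 probe sets had differences from −6.73 to −2.0, and Axin2, whose 16 ran from 0.65 to 2.67. In 67 of the 88 genes at least 1 group mean was below the lowest array median and in 36 at least 3 were, and values that low have no known relation to background. Called genes with no low group mean numbered 21, among them S100a4, Sparc, Vegfd, Nrep, Htra1 and Axin2.

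**Figure D5:**
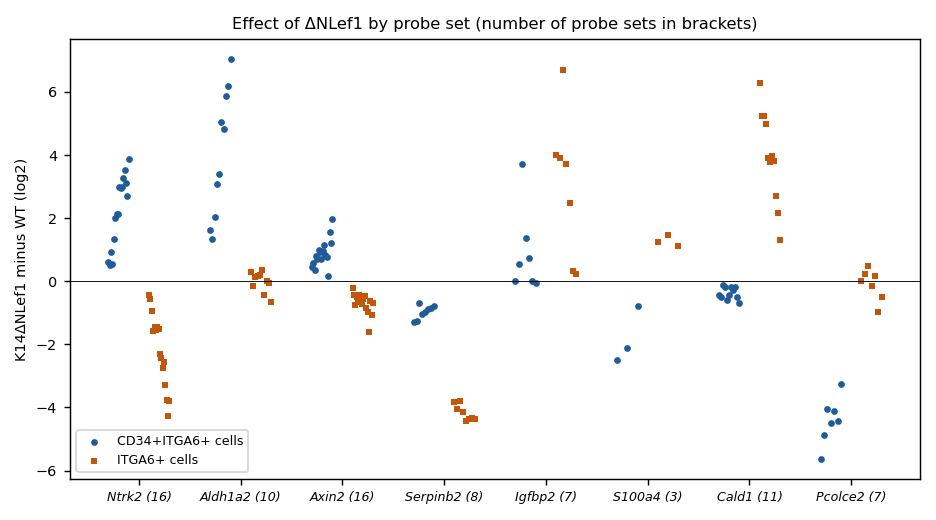
Effect of ΔNLef1 (K14ΔNLef1 minus WT, log2) in each probe set of 8 genes, with circles for CD34+ITGA6+ cells, squares for ITGA6+ cells and the number of probe sets in brackets. In Ntrk2 all 16 circles lie above 0 and all 16 squares below it, and in Cald1 the 11 squares lie above all circles.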

How the data were processed

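The deposited table held linear intensity values of 114330 exon-array probe sets in 12 arrays, which the authors made with Affymetrix Power Tools and RMA, with coordinates on mm9, per the submitters' processing notes and the study's methods (versions and the rule that chose the probe sets are not given in the sources used here). RMA equalises the arrays and so removes part of any shift that all genes share. The array number limits the precision, and the sources used here do not give the design of the study's own gene-level test.

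Intensities ran from 2.47 to 17286.4 and were put on the log2 scale here. Of the probe sets, 109796 (96.0%) had 1 gene symbol, 836 several and 3698 none, by the platform annotation, and 1240 symbols were replaced by current RefSeq names (GRCm38.p6). Probe sets of a gene were summarised by their median. Groups were taken from the sample titles. The difference of effects was a contrast of 4 group means in limma 3.58.1 (R 4.3.3) with eBayes moderation, and p-values were adjusted over all 5712 genes tested. The script was tested on simulated data. Alternatives were centring, quantile normalization, the mean over probe sets, other filters, a variance trend, array weights, replicate blocks and leaving out each array. Named genes were the 15 highest and the 15 lowest called differences, called genes with opposite effects, and up to 4 called members, or else 2 uncalled ones, of each gene list. The members and lists were chosen with earlier results of these data known.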

Additional observations from a re-analysis of the deposited data

Results flagged for a closer look

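The count of 88 genes whose response to ΔNLef1 differed between the gates, and each named gene among them, are listed because limma's test of the difference itself passed the threshold. The differences of effects on the log2 scale (CD34+ITGA6+ minus ITGA6+) above 2.5 were Ntrk2 4.62, Apod 4.57, Aldh1a2 4.22, Serpinb2 3.08, Dlx5 3.08, Sfrp4 3.04, Fam81a 2.96, Ackr2 2.69 and Chit1 2.62. Those between 1 and 2.5 were Vegfd 2.45, Chst15 2.40, Gpha2 2.38, Crabp1 2.29, Htra1 2.22, Egfl6 2.09, Wif1 2.07, Il34 1.95, Il1r2 1.79, Axin2 1.60, Klf5 1.60, Lifr 1.43, Wnt16 1.31, Il4ra 1.17, Gata3 1.11 and Id4 1.07. The negative differences were Pcolce2 −4.31, Cald1 −4.24, Tagln3 −3.87, Camk4 −3.83, S100a4 −3.52, Lrrn3 −3.13, Nme5 −2.77, Serpine2 −2.76, Pla2g4c −2.73, Vldlr −2.70, Fmo1 −2.68, Sparc −2.66, Kcnk2 −2.65, Nrep −2.64, Igfbp2 −2.58, Cdo1 −2.37, Arhgap24 −2.35, Nectin3 −2.19, Tnc −2.06, Gsta3 −1.97, Gstm2 −1.89 and Fbln1 −1.85. Groups of 3 arrays were too small to search for single arrays that stand apart.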

How the results depend on the processing

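The count of 88 differing genes was 149 (71 higher, 78 lower, 74 shared) when probe sets were averaged (no longer summarised by their median) and 49 (31 higher, 18 lower, 45 shared) of 2327 genes tested with a stricter filter on low values, where fewer genes were tested. It was 112 with arrays centred on their medians, 108 after quantile normalization, 76 without a filter, 72 with a variance trend and 115 with array weights, and 64 to 85 with 1 array left out. Of the 88 genes, 56 were called in all 12 fits with an array left out, 47 in every setting that tested them, and none changed sign. The filters, the variance trend and the replicate block leave the estimate itself unchanged, so no sign could change there. The effect in CD34+ITGA6+ cells (109 genes) gave 177 calls with the mean over probe sets and 71 to 117 with 1 array left out, the fewest without K14ΔNLef1 CD34+ITGA6+ replicate 3. The effect in ITGA6+ cells (303) gave 174 with the stricter filter, 455 with array weights and 193 to 316 with 1 array left out (193 without K14ΔNLef1 ITGA6+ replicate 3, 197 without WT ITGA6+ replicate 3). Beyond the construction of the filter, the cause was not tested. The uncalled difference of Krt14 ranged from −0.079 to 0.16 with 1 array left out, and was below 0 without WT CD34+ITGA6+ replicate 2 (−0.0043) or K14ΔNLef1 CD34+ITGA6+ replicate 1 (−0.079) or 3 (−0.00018). Arrays with the same replicate number deviated together weakly when all groups were pooled (r from −0.13 to 0.23 in 18 pairs, 6 over 0.1). Many of these pairs join WT with K14ΔNLef1 arrays, which cannot share a mouse. The main fit did not take the numbers as pairs. With the replicate number as a block 91 genes were called, 76 of them shared. Egfl6, Lifr, Id4, Il12rb2 and Tnxb were then not called (adjusted p of 0.0516, 0.0561, 0.0649, 0.0538 and 0.0587), and Mgst1 and Calml3 were (0.033 and 0.0215). The labels do not say whether both gates of a number came from the same mice. Between the gates of a genotype, 5 of 6 same-numbered pairs had r over 0.1 (0.069 to 0.23). A block for each genotype and number, chosen after the data were seen and estimating the difference of effects alone on 4 residual degrees of freedom, called 101 genes (47 higher, 54 lower, 75 shared). Of the genes named by the rule it did not call Id4, Fbln1, Gata3 and Gstm2 (adjusted p of 0.0962, 0.0537, 0.0575 and 0.0678) and called Calml3, Acaca and Mgst1 (0.0351, 0.0306 and 0.0308). Without a filter Egfl6, Lrrn3, Id4, Il1r2, Lifr, Gstm2, Klf5, Il12rb2 and Tnxb were not called (adjusted p from 0.0516 to 0.0894). Id4, Il12rb2 and Tnxb were also not called with a variance trend (0.0514, 0.0777 and 0.0777), Id4 and Tnxb with the mean over probe sets (0.166 and 0.096), and Il12rb2 after quantile normalization (0.0539). Low signal limits 67 of the 88 genes, which had at least 1 group mean below the lowest array median.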

Other observations

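Called genes outside the naming rule were chosen after their values were seen and are given as values. In cell adhesion and guidance, Chl1, a neural adhesion molecule, measured 10.37, 10.31 and 10.69 in WT and 8.33, 8.43 and 8.70 in K14ΔNLef1 ITGA6+ cells and 7.98 to 8.45 in the bulge arrays (difference 2.05 ± 0.27, adjusted p = 9.6e-04 by limma). Cdh11, a cadherin of mesenchymal cells, measured 7.77, 7.89 and 7.42 in WT and 9.37, 9.77 and 9.35 in K14ΔNLef1 CD34+ITGA6+ cells and 5.69 to 6.31 outside the bulge gate (difference 2.01 ± 0.28, adjusted p = 0.0015). The first fell outside the bulge gate and the second rose inside it. Slc14a1, a urea transporter, also rose inside it, from 7.62, 7.38 and 7.81 to 10.02, 9.45 and 9.32 (difference 1.64 ± 0.28, adjusted p = 0.0086).

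Enzymes that build or modify sugars and proteins of the cell surface gave calls in both directions. Has3, which makes hyaluronan, rose from 7.17, 7.05 and 6.54 to 9.45, 9.53 and 9.42 in ITGA6+ cells and measured 5.88 to 6.69 in the bulge arrays (difference −2.17 ± 0.31, adjusted p = 0.0015). Tpst1, which adds sulphate to tyrosines, rose from 7.71, 8.60 and 8.17 to 10.05, 10.09 and 9.75 outside the bulge gate (difference −2.54 ± 0.32, adjusted p = 6e-04). Gcnt2, which branches glycan chains, fell from 7.97, 8.24 and 8.22 to 6.51, 6.88 and 6.75 there and lay between 7.98 and 8.44 in the bulge arrays (difference 1.43 ± 0.26, adjusted p = 0.0116). These 3 calls held in all 12 fits with 1 array left out.

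Hk2, a hexokinase of glycolysis, rose from 6.68, 6.61 and 6.57 to 8.70, 8.37 and 8.57 in ITGA6+ cells, to the level of the bulge arrays (7.96 to 8.45), with a difference of −1.92 ± 0.26 (adjusted p = 0.0012). Irf4, a transcription factor of immune cells and melanocytes, fell from 8.60, 8.09 and 7.91 to 5.76, 5.73 and 6.05 in ITGA6+ cells and was low in the bulge arrays (difference 1.80 ± 0.29, adjusted p = 0.0044), a call that was lost with a variance trend (adjusted p = 0.0734). Slc24a5 and Myef2 had differences of −2.35 ± 0.43 and −2.39 ± 0.43. Their gene models overlap, so their signals may not be separate and both values are uncertain, and Myef2 was not called with the mean over probe sets (adjusted p = 0.0546). Slc24a5 is known from pigment cells. The summed intensity of the 7 melanocyte markers was 610 to 683 in WT and 527 to 618 in K14ΔNLef1 ITGA6+ cells, and 1531 to 1743 and 1181 to 1705 in CD34+ITGA6+ cells, and their part in the differences of Irf4 and Slc24a5 was not tested.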
